A study of Homo sapiens with 6 samples.

Results

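The mitochondrial ribosomal protein genes were taken as every entry of the gene count table whose symbol starts with MRPL or MRPS followed by a digit. The rule found 78 genes among 19655, of which 49 carry the large subunit prefix MRPL and 29 the small subunit prefix MRPS. None is a pseudogene or an antisense transcript, and all 78 passed the filter on low counts that left 14062 genes for testing. They lie on every autosome except chromosome 18, with at most 8 on any chromosome. Total RNA was sequenced from cells labelled HCT116, an established human colorectal cancer line. There were 3 libraries of the genotype labelled control (NC) and 3 of the genotype labelled SNORA67 knockdown (ASO). The knockdown cells were transfected with ASO-SNORA67, an antisense oligonucleotide against the small nucleolar RNA SNORA67. All cells were grown in DMEM with foetal bovine serum, and the series asks by which mechanisms SNORA67 acts in these cells. The sources used here do not say whether control cells received an oligonucleotide, nor the dose or the harvest time.

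Mitochondria carry their own ribosome, which translates the few proteins encoded by mitochondrial DNA, all of them core subunits of oxidative phosphorylation. Its RNAs come from mitochondrial DNA, while every protein of it is encoded in the nucleus, made in the cytosol and imported. Many of these proteins descend from bacterial ribosomal proteins, and others were added in the course of mitochondrial evolution. The prefix does not always give the place in the ribosome: MRPS18A and MRPS30 are proteins of the large subunit, and MRPS36 is now known as a component of the 2-oxoglutarate dehydrogenase complex. Colorectal cancer cells use mitochondrial translation to maintain respiration.

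Column totals were 50.7e6 to 53.7e6 estimated counts in NC and 49.1e6 to 54.9e6 in ASO, and the least counted member had 97 counts in its lowest library. The most frequent value above 0 was 4 in each library, held by 226 to 296 genes against 74 to 121 genes at 3, so a count need not be a single sequenced fragment. Nothing in the labels ties the 3 libraries of a group to separate cultures, so the tests below set group differences against a spread that may be technical only. SNORA67 itself was not analysed here. Its host gene EIF4A1, an RNA helicase of translation initiation, had a mean level of 1544 in NC against 617 in ASO, and DLGAP5, a mitotic spindle protein named in the series title, of 35.6 against 11.0, all in CPM (counts per 1e6 counts of a library, after TMM scaling by edgeR). The markers went partly against the label HCT116, an epithelial line, and the identity of the cells could not be settled here. KRT8 and KRT18 were high at 1360 and 712 CPM in NC, but EPCAM was at 4.37 CPM, CDH1 at 1.06 and KRT19 at 0.0503, while the mesenchymal genes VIM and COL5A1 were at 1201 and 612 CPM. The 10 fibroblast or mesenchymal markers summed to 2164 to 2440 CPM in NC and 2854 to 3416 CPM in ASO, and 3 of the 9 tested rose (COL1A1, COL5A1 and COL3A1) and 3 fell (PDGFRB, LUM and DCN). The 10 epithelial markers summed to 1981 to 2285 CPM in NC and 1697 to 2234 CPM in ASO, and of the 9 tested KRT19 and VIL1 rose and none fell. Without the keratins KRT8, KRT18 and KRT19, the epithelial sum was 72.0 to 85.6 CPM in NC and 57.3 to 82.1 CPM in ASO. Only 3 of the 10 epithelial markers had a mean of 10 CPM or more in NC. The 4 endothelial markers summed to 9.34 to 10.4 CPM in NC and 14.03 to 18.4 CPM in ASO, where PECAM1 rose, and the 5 blood markers to 0.53 to 1.10 and 1.17 to 2.34 CPM. The blood markers PTPRC and CD3E and the endothelial marker KDR were at 0 in all 6 libraries. The part of these differences in the results on the ribosomal genes was not tested. In total RNA of cultured cells, fewer cells of a type and less RNA per cell cannot be told apart.

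Promoter windows of 5 genes are shown because they belong to 4 of the 5 members with the largest falls described below and to the member with the highest fold change. Sequences are those of RefSeq on GRCh38.p14, from 250 bases before to 50 bases after the gene start, written 5′ to 3′ on the gene's strand. Capitals mark matches on either strand to 4 short motifs: CCGGAAG of ETS factors such as GABPA, AANATGGC of YY1, CGCATGCG of NRF1 and CCAAT of NF-Y. These factors are known regulators of nuclear genes for mitochondrial proteins.
The windows are chr21:34073328-34073627 on the plus strand (MRPS6), chr4:77862580-77862879 on the plus strand (MRPL1), chr4:83455808-83456107 on the plus strand (MRPS18C), chr1:175023376-175023675 on the minus strand (MRPS14) and chr2:74472631-74472930 on the minus strand (MRPL53).
MRPS6: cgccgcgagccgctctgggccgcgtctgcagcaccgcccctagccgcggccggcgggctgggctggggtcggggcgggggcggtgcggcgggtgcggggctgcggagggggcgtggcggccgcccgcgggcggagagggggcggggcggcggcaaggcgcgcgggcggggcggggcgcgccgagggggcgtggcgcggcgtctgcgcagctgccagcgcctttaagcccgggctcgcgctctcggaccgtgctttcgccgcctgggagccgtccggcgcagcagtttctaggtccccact
MRPL1: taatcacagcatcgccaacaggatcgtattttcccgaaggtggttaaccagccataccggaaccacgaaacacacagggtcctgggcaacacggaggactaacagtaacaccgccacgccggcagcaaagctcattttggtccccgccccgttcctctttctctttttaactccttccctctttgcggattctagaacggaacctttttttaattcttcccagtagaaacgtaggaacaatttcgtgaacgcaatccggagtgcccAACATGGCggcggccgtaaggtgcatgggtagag
MRPS18C: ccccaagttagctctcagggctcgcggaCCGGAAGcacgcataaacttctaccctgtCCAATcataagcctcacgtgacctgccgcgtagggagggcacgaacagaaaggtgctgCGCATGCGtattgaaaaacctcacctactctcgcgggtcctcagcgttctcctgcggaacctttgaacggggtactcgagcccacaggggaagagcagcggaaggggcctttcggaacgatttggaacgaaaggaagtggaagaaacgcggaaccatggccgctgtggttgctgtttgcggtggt
MRPS14: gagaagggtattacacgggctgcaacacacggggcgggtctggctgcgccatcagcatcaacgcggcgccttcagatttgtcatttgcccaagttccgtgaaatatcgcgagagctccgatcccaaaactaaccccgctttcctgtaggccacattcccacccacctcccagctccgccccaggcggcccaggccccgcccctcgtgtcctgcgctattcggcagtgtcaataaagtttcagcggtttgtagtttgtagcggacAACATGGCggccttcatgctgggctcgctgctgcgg
MRPL53: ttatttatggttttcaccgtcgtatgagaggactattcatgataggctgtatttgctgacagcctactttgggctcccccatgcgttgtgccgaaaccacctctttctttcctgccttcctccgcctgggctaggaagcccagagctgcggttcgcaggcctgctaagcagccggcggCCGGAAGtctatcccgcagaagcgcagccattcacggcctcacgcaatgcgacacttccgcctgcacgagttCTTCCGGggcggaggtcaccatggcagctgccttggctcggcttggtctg
MRPL1 and MRPS14 each held a YY1 match shortly after the gene start, MRPS18C held an ETS, an NRF1 and a CCAAT match, MRPL53 held 2 ETS matches, and the GC-rich window of MRPS6 held none of the 4. Of the 78 members, 70 had a window in the RefSeq table, MRPS36 under its newer symbol KGD4. The ETS motif was present in 41.4% of these windows, against 18.1% of the windows of all genes tested and 10.7% of all 27305 windows. The YY1 motif was present in 35.7% of members, 9.61% of genes tested and 6.82% of all windows. NRF1 matched 4.29% of members against 3.63% of genes tested and 2.19% of all, and CCAAT 28.6% against 36.3% and 35.7%. Both subunits held the ETS motif at like shares, 40.5% of large and 42.9% of small, and the YY1 motif at 35.7% in each. A match describes letters in the window and not a bound site.

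In ASO cells, 21 of the 78 mitochondrial ribosomal protein genes fell and 0 rose (edgeR quasi-likelihood test, Benjamini-Hochberg adjusted p under 0.05 over all 14062 genes). Over all genes tested, 19.1% were lower and 26.8% higher. The members are all well expressed, and among the 10481 genes at a mean of 5 CPM or more, a level chosen after the data were seen, 23.7% were lower and 21.5% higher. The members' 26.9% lower is near this background, while none of the 78 was among the higher genes. The background has a floor on level but is not matched to the members in level. By unadjusted p under 0.05, 33 members were lower and 1, MRPL53, was higher, against 23.8% and 29.9% of all genes. Of the 10481 genes at 5 CPM or more, 3067 were lower and 2526 higher by that measure. DESeq2 called 23 lower and 0 higher, and limma-voom 24 and 0.

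The 21 genes that fell were 1.25- to 3.23-fold lower, with a median of 1.49-fold, and in each of them every ASO library lay below every NC library. Of the other 57 members, 45 had a fold change below 0, so that 66 of 78 pointed down in all. Fold changes below 0 were found in 5930 of the 10481 genes at 5 CPM or more, and in 6923 of all 14062 tested. The ASO and NC libraries did not overlap in 39 members on the lower side and in 2, MRPL53 and MRPL54, on the higher side. Over all genes tested, 25.9% were apart on the lower side and 31.6% on the higher side. Among the 10481 genes at 5 CPM or more, 3273 were apart on the lower side and 2639 on the higher side. The median log2 fold change of the 78 was -0.24, against 0.01 over all genes tested and -0.09 over the genes at 5 CPM or more. With the trend of fold change with GC content and transcript length removed, it was -0.13, against -0.09 for the genes fitted. With genomic span added to that trend, an analysis chosen after the data were seen, it was -0.21. Without the library ASO2, 28 members fell and 4 rose (MRPL20, MRPS30, MRPL53 and MRPL49), against 22.4% lower and 27.5% higher of all genes in that fit. Without NC1, 13 members fell, against 12.1% of all genes.

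**Figure D1:**
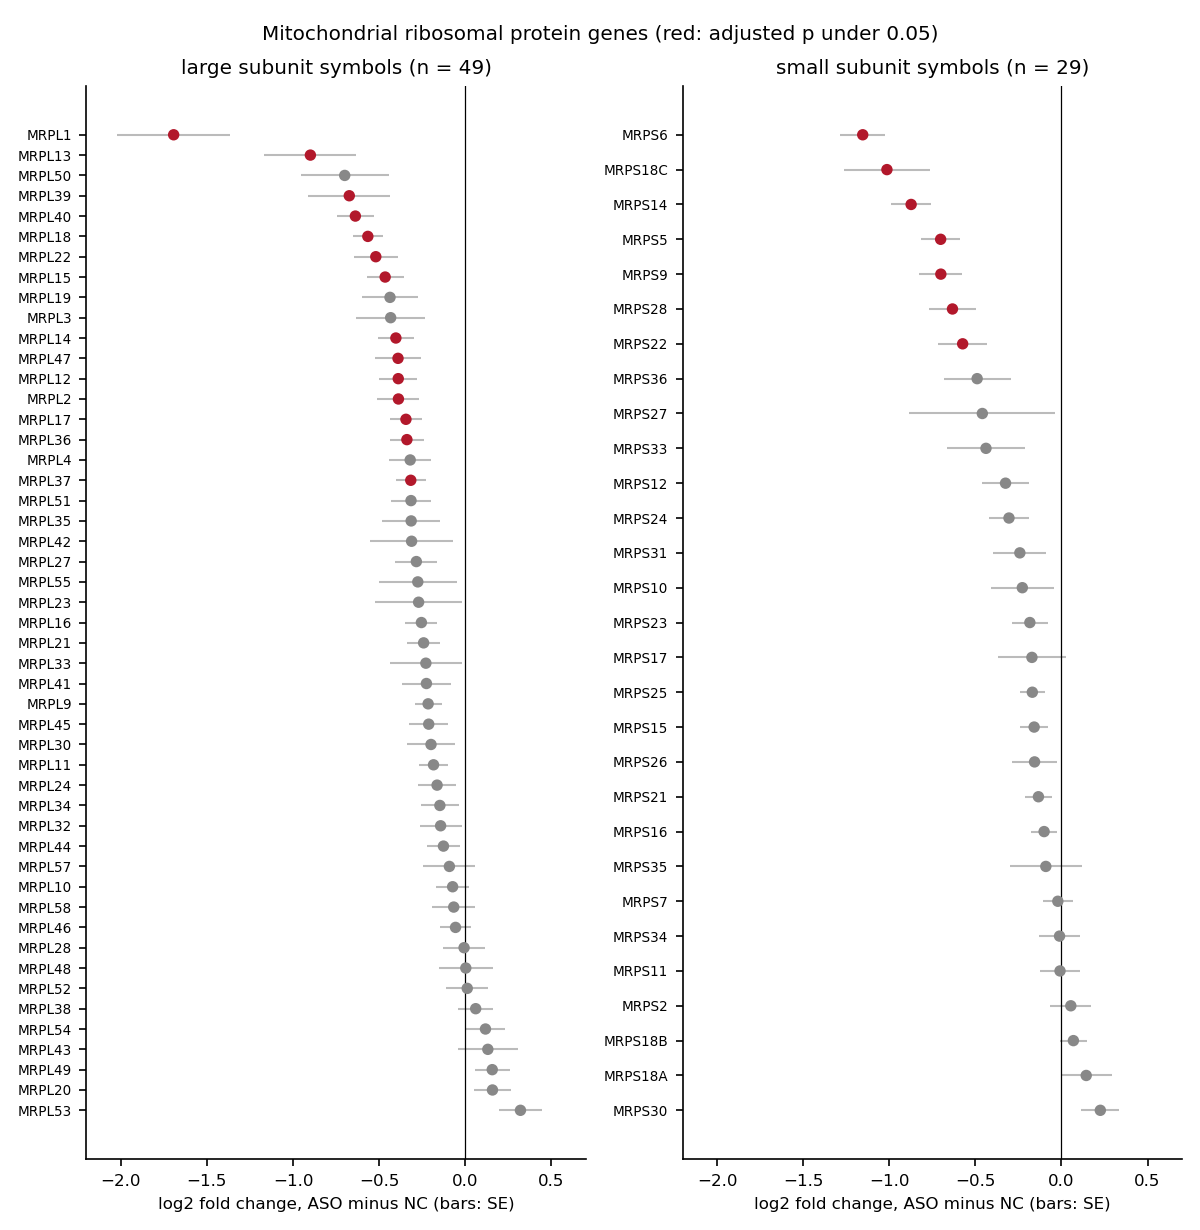
Fitted log2 fold change (ASO minus NC, horizontal axis) of all 78 genes with its standard error as a bar, in separate panels for 49 MRPL and 29 MRPS symbols; red points passed the edgeR test. The red points all lie left of 0, from -0.32 (MRPL37) to -1.69 (MRPL1), and the highest point is MRPL53 at 0.32.

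MRPL1 had the largest fold change. It encodes the protein of the L1 stalk, the mobile arm of the large subunit at the site where spent tRNA leaves, and lies on chromosome 4 from 77862830 to 77952785 of hg38. It was also the least expressed member, at 7.95, 11.3 and 7.53 CPM in the NC libraries and 1.81, 4.06 and 2.40 CPM in the ASO libraries. All ASO values lay below all NC values, although replicate 2 was the highest of both groups. The mean was 8.91 ± 2.05 CPM in NC and 2.76 ± 1.17 CPM in ASO (SD, n = 3 each), a log2 fold change of -1.69 ± 0.33 (SE, edgeR adjusted p = 0.00454).

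MRPS6 and MRPS18C encode neighbouring proteins of the small subunit platform, the surface that faces the messenger RNA exit. MRPS6 (chromosome 21, 34073578 to 34143030) was at 38.4, 46.1 and 39.8 CPM in NC and 17.3, 20.6 and 18.0 CPM in ASO. The groups were far apart, with a log2 fold change of -1.15 ± 0.13 (SE, edgeR adjusted p = 0.000364), the smallest p-value of the 78. MRPS6 shares 32683 bases on the same strand with SLC5A3, a myo-inositol transporter, which also fell (log2 fold change -0.67, edgeR adjusted p = 0.0196). Reads of the pair could not be separated here. MRPS18C (chromosome 4, 83455983 to 83467504) was at 32.0, 51.1 and 33.6 CPM in NC and 15.3, 25.4 and 17.1 CPM in ASO. Its log2 fold change was -1.01 ± 0.25 (SE, edgeR adjusted p = 0.0123), which without ASO3 missed the threshold (edgeR adjusted p = 0.0508).

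MRPS18C is one of 3 human genes derived from the bacterial S18 protein, and the remaining pair did not pass the test. MRPS18A was at 46.2, 41.2 and 51.7 CPM in NC and 57.4, 42.1 and 54.1 CPM in ASO (log2 fold change 0.14 ± 0.15, edgeR adjusted p = 0.457). MRPS18B was at 283, 271 and 274 CPM in NC and 291, 268 and 309 CPM in ASO (log2 fold change 0.07 ± 0.08, edgeR adjusted p = 0.508). In both paralogs the groups overlapped. Differences between the 3 fold changes were not tested.

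Further falls were found in proteins of the small subunit head and body. MRPS14, a protein of the head next to the ribosomal RNA core (chromosome 1, 175012958 to 175023425), was at 32.8, 34.0 and 33.4 CPM in NC and 17.6, 19.8 and 17.3 CPM in ASO. The replicates were tight in both groups and the log2 fold change was -0.87 ± 0.12 (SE, edgeR adjusted p = 0.000821). MRPS9 (chromosome 2, 105038069 to 105099960), whose bacterial relative reaches to the peptidyl site, was at 39.7, 39.6 and 40.7 CPM in NC and 28.2, 23.0 and 22.6 CPM in ASO. Again no libraries overlapped, with a log2 fold change of -0.70 ± 0.13 (SE, edgeR adjusted p = 0.00311). MRPS5 (chromosome 2, 95085369 to 95121978), related to a bacterial protein at the messenger RNA entry, was at 153, 151 and 194 CPM in NC and 102, 100.5 and 103 CPM in ASO. In CPM it was the most abundant of the 7 small subunit genes that fell, and its log2 fold change was -0.70 ± 0.11 (SE, edgeR adjusted p = 0.00194).

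Of the other small subunit genes with a fixed role in the description, none passed the test. MRPS12, the protein of the decoding centre, was at 95.4, 88.6 and 110 CPM in NC and 88.5, 66.7 and 79.8 CPM in ASO (log2 fold change -0.32, edgeR adjusted p = 0.0815). The rRNA-binding proteins MRPS15 and MRPS16 had log2 fold changes of -0.16 and -0.10, and MRPS2 and MRPS7 of 0.05 and -0.02. MRPS27, a pentatricopeptide repeat protein of the small subunit, varied more than any change it showed. It was at 119, 123 and 221 CPM in NC and 49.4, 119 and 169 CPM in ASO, with overlapping groups (log2 fold change -0.46 ± 0.42, edgeR adjusted p = 0.404).

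**Figure D2:**
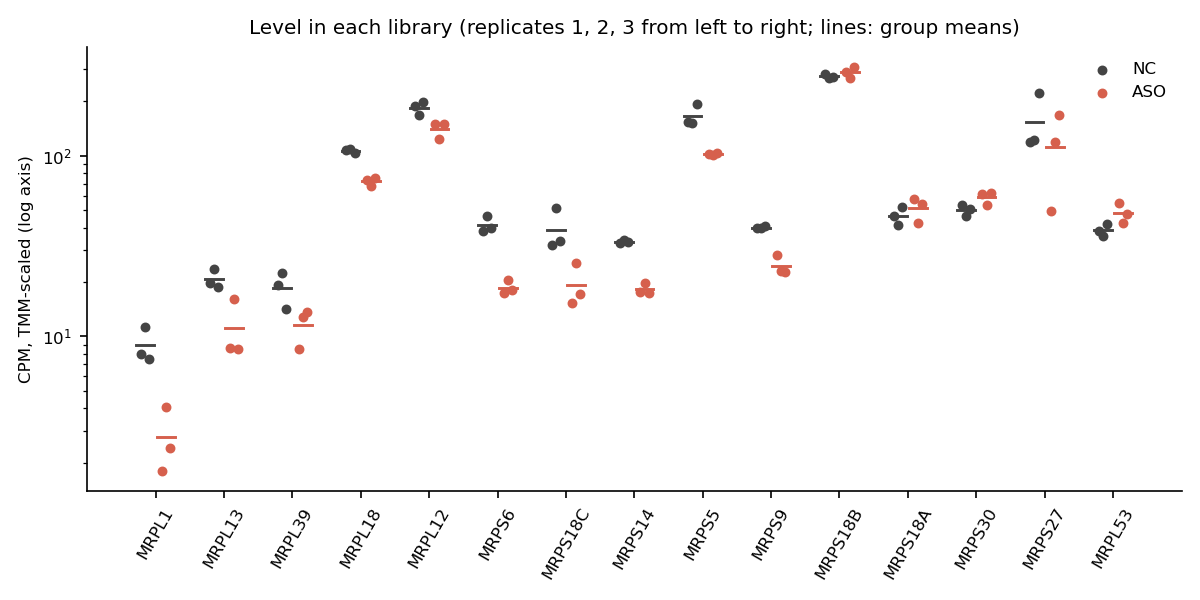
Level of 15 genes in each library (TMM-scaled CPM on a log axis; dark points NC, red points ASO, replicates 1, 2 and 3 from left to right, lines for group means). MRPL1, MRPS6 and MRPS14 show separate groups, MRPS18A and MRPS18B overlapping ones, and MRPS27 a wide spread within both groups.

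In the large subunit, MRPL13 and MRPL18 followed MRPL1 among the conserved proteins named by the rule for named genes. MRPL13 (chromosome 8, 120395437 to 120445150), a protein that binds ribosomal RNA early in assembly of the bacterial subunit, was at 19.7, 23.6 and 18.8 CPM in NC and 8.59, 16.1 and 8.52 CPM in ASO. ASO2 stood close to the NC range, and the log2 fold change of -0.90 ± 0.27 (SE, edgeR adjusted p = 0.0260) lost its call in 5 of the 6 analyses that left out a library, all but the one without ASO2. MRPL18 (chromosome 6, 159790467 to 159798429), a protein of the central protuberance, was at 108, 109 and 103 CPM in NC and 73.0, 67.5 and 75.6 CPM in ASO. Its groups were well apart, with a log2 fold change of -0.57 ± 0.09 (SE, edgeR adjusted p = 0.00170). MRPL39, a protein without bacterial counterpart that resembles a tRNA synthetase, was at 19.2, 22.3 and 14.1 CPM in NC and 8.45, 12.8 and 13.7 CPM in ASO. Its call (log2 fold change -0.67 ± 0.24, edgeR adjusted p = 0.0499) was at the threshold and was lost in 10 of 16 alternative analyses.

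MRPL12, MRPL10 and MRPL11 belong to the stalk that recruits translation factors, as do MRPL53 and MRPL54 in the list used here. MRPL12 (chromosome 17, 81703367 to 81707517), which is also known to bind the mitochondrial RNA polymerase, was at 189, 167 and 197 CPM in NC and 149, 124 and 150 CPM in ASO. It fell modestly, with a log2 fold change of -0.39 ± 0.11 (SE, edgeR adjusted p = 0.0211), and missed the threshold without NC1 or NC3 (edgeR adjusted p up to 0.0604). MRPL10 and MRPL11 did not pass, at log2 fold changes of -0.07 and -0.18. MRPL53 was at 38.1, 35.8 and 41.9 CPM in NC and 54.4, 42.6 and 47.6 CPM in ASO, the only stalk gene besides MRPL54 with all ASO libraries above all NC libraries. Its log2 fold change of 0.32 ± 0.13 did not pass (SE, edgeR adjusted p = 0.0714).

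Several members with special roles in the ribosome did not pass the test. MRPL45, which anchors the ribosome to the inner membrane, had a log2 fold change of -0.21 and overlapping groups. MRPL58, a peptidyl-tRNA hydrolase that is built into the ribosome, was at -0.07, and MRPL32, whose maturation by the m-AAA protease precedes its assembly, at -0.14. MRPL3, a protein near the peptidyl transferase centre, was at 96.0, 104 and 87.7 CPM in NC and 48.6, 87.5 and 76.8 CPM in ASO (log2 fold change -0.43, edgeR adjusted p = 0.115). Its groups just separated, with ASO2 close to the NC libraries. MRPS30, a large subunit protein despite its name, was at 0.23 (edgeR adjusted p = 0.129).

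The other 11 members that fell were named after their values were seen. MRPL40 (log2 fold change -0.64), MRPL22 (-0.52), MRPL15 (-0.46), MRPL14 (-0.40), MRPL47 (-0.39), MRPL2 (-0.39), MRPL17 (-0.34), MRPL36 (-0.34) and MRPL37 (-0.32) are large subunit genes. MRPS28 (-0.63) and MRPS22 (-0.57) are small subunit genes. MRPL2 is related to a bacterial protein near the peptidyl transferase centre, and MRPL17 and MRPL22 line the region of the exit tunnel. Of all 21 genes that fell, 12 kept their call in each of 16 alternative analyses: MRPL1, MRPS6, MRPS14, MRPS5, MRPS9, MRPL40, MRPS28, MRPS22, MRPL18, MRPL22, MRPL15 and MRPL14. MRPL47 lost its call in 7 of them, MRPL2 in 3, MRPL36 and MRPL37 in 2, and MRPL17 in 1.

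Large and small subunit genes were then set side by side. Of 49 large subunit genes 14 fell, and of 29 small subunit genes 7 fell, which is 28.6% and 24.1%. Among the genes at a mean of 5 CPM or more, 23.7% were lower. The median log2 fold change was -0.25 in the large and -0.18 in the small subunit. Relative to each gene's NC mean, the median log2 level of the large subunit genes was -0.24, -0.25 and -0.22 in the ASO libraries, and that of the small subunit genes -0.19, -0.18 and -0.17. The difference between the fitted medians, -0.07, was small and turned to 0.023 without ASO2. Summed over the 49 large subunit genes, the level was 3768, 3712 and 3700 CPM in NC and 3265, 3085 and 3290 CPM in ASO. Summed over the 29 small subunit genes, it was 2752, 2707 and 2873 CPM in NC and 2445, 2372 and 2520 CPM in ASO. Every ASO sum lay below every NC sum for both subunits. The ratio of the large to the small sum was 1.37, 1.37 and 1.29 in NC and 1.34, 1.30 and 1.31 in ASO, so the groups overlapped. Per kilobase of transcript, the ratio was 1.81, 1.83 and 1.72 in NC and 1.76 in each ASO library. All 78 genes together held 0.651% to 0.658% of counts in NC and 0.555% to 0.574% in ASO. With MRPS18A and MRPS30 counted as large and MRPS36 left out, 14 of 51 large and 7 of 26 small subunit genes fell, with medians of -0.24 and -0.21.

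By descent, 16 of 45 genes for proteins with a bacterial relative fell (35.6%). Of those counted as specific to mitochondria, 5 of 32 fell (15.6%). MRPS36 was left out of this split, and MRPS28, which has a distant bacterial relative, was counted as specific. MRPS18A and MRPS18B, which derive from the bacterial S18 protein, were also counted as specific, and neither passed the test. The split therefore does not follow descent strictly. The median log2 fold changes were -0.28 and -0.14. Among the genes at a mean of 5 CPM or more, the median was -0.09 and 23.7% were lower. In the large subunit 11 of 30 conserved and 3 of 19 specific genes fell, and in the small subunit 5 of 15 and 2 of 11. MRPS18A and MRPS30 were left out of these counts by subunit. The specific genes that fell were MRPL37, MRPL39, MRPL40, MRPS22 and MRPS28. By place, 1 of 5 stalk genes fell (MRPL12), 2 of 6 genes of the central protuberance (MRPL18 and MRPL40) and 3 of 7 around the exit tunnel (MRPL17, MRPL22 and MRPL39). The difference between the 2 classes was not tested, since members are not replicates.

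Levels in NC ran from 8.91 CPM (MRPL1) to 326 CPM (MRPS25). Per kilobase of the principal transcript, the highest levels in NC were those of MRPL37 (182 ± 11.3 CPM per kb), MRPS18B (180 ± 4.09), MRPL12 (180 ± 15.1), MRPL24 (178 ± 12.2) and MRPS24 (174 ± 19.5; SD, n = 3), which lie within their spread of each other. The lowest were MRPL1 (5.98 ± 1.37 CPM per kb), MRPL35 (7.51 ± 0.82) and MRPL50 (7.90 ± 1.38). Genes with low levels had lower fold changes among the 78 (across genes, Pearson r 0.45 and Spearman rho 0.36 with log2 mean CPM), while over all genes tested the relation had the opposite sign (r -0.40, rho -0.24). The mean includes the ASO libraries, and genes are not independent replicates.

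The fold changes of the 78 genes followed the base composition and span of the genes, as did those of all genes. Across the members, the log2 fold change was correlated with the GC content of the principal transcript (r 0.41, rho 0.42) and with the log10 genomic span (r -0.43, rho -0.36). Over 13893 genes tested with these properties, rho was 0.38 and -0.22. Among members below 45% GC, 9 of 21 fell, against 30.5% of all genes in that range. From 45% to 55% GC, 7 of 37 members fell, against 20.7% of all genes. At 55% GC or more, 5 of 20 members fell (MRPL40, MRPL12, MRPL14, MRPL2 and MRPL37) against 8.71%, and the median log2 fold change was -0.25 in members and 0.29 in all genes of that range. By span, 5 of 29 members under 8 kb fell (all genes 10.4%), 8 of 31 from 8 to 30 kb (17.1%) and 8 of 18 of 30 kb or more (23.8%). None of the members rose in any of these ranges. The values of all genes in these ranges include genes under 5 CPM, so they are not matched to the members in level. Without regard to range, the median was 0.01 over all genes tested and -0.09 at 5 CPM or more.

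**Figure D3:**
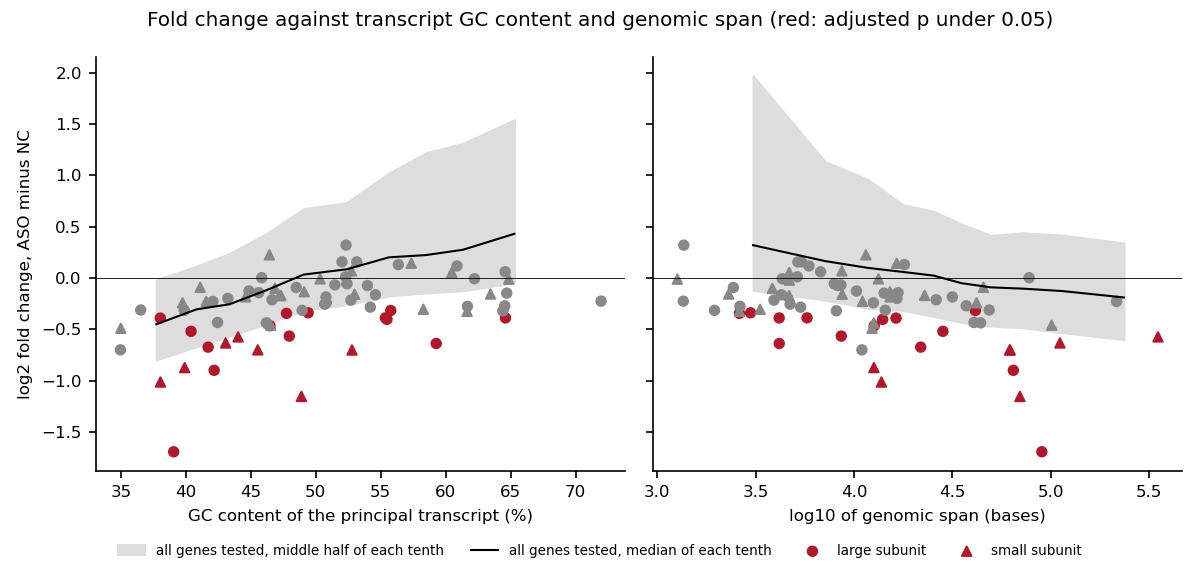
Log2 fold change (ASO minus NC, vertical axis) against GC content in percent (left) and log10 genomic span in bases (right); circles are large and triangles small subunit genes, red where the edgeR test was passed, with the median and interquartile range of all genes tested by decile as line and band. At 55% GC or more the band lies mostly above 0 while the members have a median of -0.25. The band includes genes under 5 CPM and is not matched to the members in level.

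Libraries of the same group also differed by base composition. Spearman's rho across the 78 genes, between a library's deviation from its group mean and GC content, was 0.43, -0.79 and 0.66 in NC1, NC2 and NC3, and 0.70, -0.79 and 0.39 in ASO1, ASO2 and ASO3. In NC2 and ASO2 the AT-rich members such as MRPL1, MRPS18C and MRPL13 stood above their group means, which is visible in the values given above. Over all genes the values were -0.53 in NC2 and -0.62 in ASO2. After removal of the trend of fold change with GC content and transcript length, fitted over the genes at 5 CPM or more, the medians of the large and the small subunit were -0.13 and -0.10, against -0.09 for the genes fitted. With genomic span added, an analysis chosen after the data were seen, the medians were -0.21 for all 78 genes, -0.17 for the large and -0.24 for the small subunit. Their part in the difference between the groups was not tested beyond this.

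**Figure D4:**
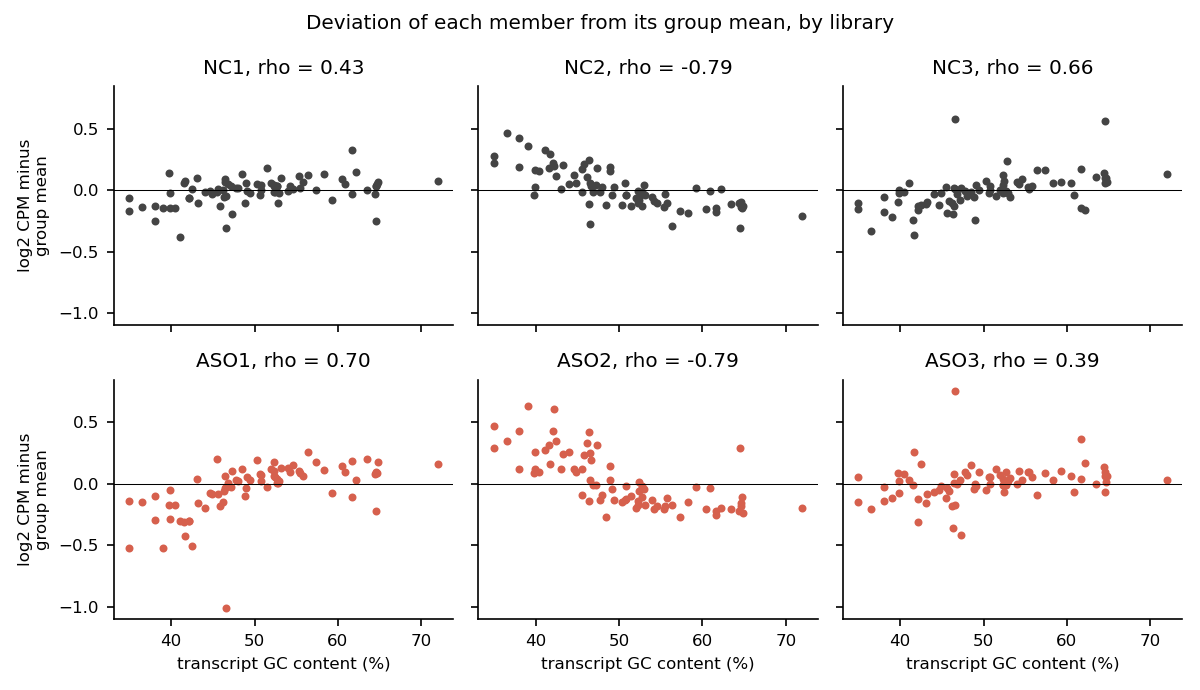
Deviation of each of the 78 genes from its group mean (log2 CPM, vertical axis) against transcript GC content in percent, in a panel per library with Spearman's rho. NC2 and ASO2 slope downwards with rho of -0.79, and the other 4 libraries upwards with rho of 0.39 to 0.70.

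Overlapping neighbours limit some of these values, since the strand setting of the counting is not given in the sources used here. In the annotation, 26 of the 78 genes overlap another gene, 7 of the 21 that fell among them. MRPS22 overlaps COPB2, a coat protein of Golgi vesicles on the opposite strand that also fell (log2 fold change -0.58, edgeR adjusted p = 0.0244). MRPL47 overlaps ACTL6A by 123 bases, which fell by 0.84 on the log2 scale (edgeR adjusted p = 0.00160), and MRPL37 overlaps SSBP3 by 32 bases (-0.55, edgeR adjusted p = 0.00292). MRPS18C shares 7988 bases with ABRAXAS1, which was far lower in level at 2.57 CPM in NC. MRPL46 and MRPS11 are a divergent pair of a large and a small subunit gene on chromosome 15, with 317 bases between their starts and 181 bases shared by their promoter windows. Neither passed the test, with log2 fold changes of -0.06 and -0.01.

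Genes that fell were found both with and without each promoter motif. Of 29 members with an ETS match 4 fell, and of 41 without it 13 fell, with median log2 fold changes of -0.18 and -0.28. Of 25 with a YY1 match 7 fell, and of 45 without it 10, with medians of -0.30 and -0.18. The 3 members with an NRF1 match (MRPS18C, MRPL22 and MRPL17) all fell, but they were picked out after their values were seen. These counts are descriptions without a test, and the shares lower among all genes with and without a motif were not computed. Among the genes at a mean of 5 CPM or more, 23.7% were lower.

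Other genes of mitochondrial translation were read from lists chosen by function. Only their shares past the test are compared with the genes at a mean of 5 CPM or more, 23.7% lower and 21.5% higher. The shares lower were near this background in assembly factors (25.9%) and translation factors (26.7%). They were 41.2% in mitochondrial tRNA synthetases, 38.5% in messenger RNAs of mitochondrial DNA, 33.3% in protein turnover and 11.1% in mitochondrial DNA expression. Of the regulators, 44.4% were higher. Whether any list differs from this background was not tested. Of 5 mitochondrial ribosomal proteins with other names, CHCHD1 fell (54.8 ± 3.64 CPM in NC and 35.0 ± 1.90 in ASO, SD, n = 3; log2 fold change -0.65, edgeR adjusted p = 0.00207). DAP3, a GTP-binding protein of the small subunit, had a log2 fold change of -0.14, and AURKAIP1, PTCD3 and GADD45GIP1 were at -0.06, 0.09 and 0.11. Of 27 assembly factors, 7 fell and 3 rose. The largest falls were in MTERF3, a protein of large subunit biogenesis (log2 fold change -1.23), in the pseudouridine synthase family member RPUSD3 (-1.07) and in the GTPase MTG1 (-0.93). Chosen for naming after their values were seen, the 3 rises were in MTG2 (0.83), MTERF4 (0.74) and NSUN4 (0.39), and MTERF4 and NSUN4 form a complex. ERAL1, DDX28, NOA1 and MALSU1, all assembly factors, did not pass (0.02, 0.14, 0.20 and -0.16).

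Of 15 factors of mitochondrial translation, 4 fell and 1 rose. The initiation factors MTIF2 (84.6 ± 17.0 CPM in NC, 43.1 ± 14.7 in ASO) and MTIF3 had log2 fold changes of -0.97 and -0.99, the membrane insertase OXA1L -0.58, and the formyltransferase MTFMT, named after its value was seen, -0.47. The ribosome recycling factor MRRF rose by 0.58. The elongation factors TUFM and GFM1 and the release factor MTRF1 did not pass (-0.21, -0.34 and -0.42). Of 17 mitochondrial tRNA synthetases 7 fell and 1 rose, with NARS2 (-0.82) and IARS2 (-0.80) the lowest and VARS2 at 1.06. Of 6 proteases and related proteins of mitochondrial protein turnover, AFG3L2, a subunit of the m-AAA protease, fell by 0.75 and CLPX by 0.47 on the log2 scale.

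Of 13 messenger RNAs of mitochondrial DNA, the substrates of this ribosome, 5 fell and 1 rose. MT-ND3 and MT-ND5, subunits of complex I, had log2 fold changes of -1.58 and -1.57, MT-ND6 -1.14, MT-ATP8 -0.83 and the cytochrome oxidase subunit MT-CO1 -0.77, while MT-ND1 was at 0.18 (edgeR adjusted p = 0.0467). The other 7 did not pass: MT-ND2 (0.27), MT-ND4 (-0.61), MT-ND4L (-0.18), MT-CO2 (-0.04), MT-CO3 (-0.11), MT-ATP6 (-0.86) and MT-CYB (0.16). All 13 together held 2.80% to 3.31% of counts in NC and 1.89% to 2.66% in ASO. Of 18 genes of mitochondrial DNA expression, LRPPRC, which stabilises these messenger RNAs, fell (-0.80), as did SSBP1 (-0.75), while the mitochondrial RNA polymerase POLRMT rose (0.57). TFAM, which packages and transcribes mitochondrial DNA, was at -0.17 and did not pass.

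Of 9 regulators of mitochondrial gene expression, 4 rose and the other 5 did not pass the test. PPRC1, a coactivator of the PGC-1 family, rose from 159 ± 12.3 CPM in NC to 253 ± 16.5 CPM in ASO (SD, n = 3; log2 fold change 0.67, edgeR adjusted p = 0.000936). NRF1 was at 21.5 ± 0.75 and 28.8 ± 0.87 CPM (log2 fold change 0.42, edgeR adjusted p = 0.0162), and MYC at 80.8 ± 49.3 and 191 ± 33.3 CPM (1.24, edgeR adjusted p = 0.0289). PPARGC1B, named after its value was seen, rose by 0.41. PPARGC1A, GABPA and YY1 did not pass (-0.04, -0.39 and 0.24). No test linked these regulators to the ribosomal genes.

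For comparison, 23 of 77 cytosolic ribosomal protein genes fell and 5 rose, among them RPS29 and RPL28, which were named after their values were seen, with a median log2 fold change of -0.15. Of 81 nuclear genes of oxidative phosphorylation 35 fell and 2 rose (COX6B2 and UQCRHL, likewise), with a median of -0.27. In shares, 26.9% of mitochondrial and 29.9% of cytosolic ribosomal protein genes fell, and 43.2% of the oxidative phosphorylation genes. Whether these lists differ from each other was not tested.

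**Figure D5:**
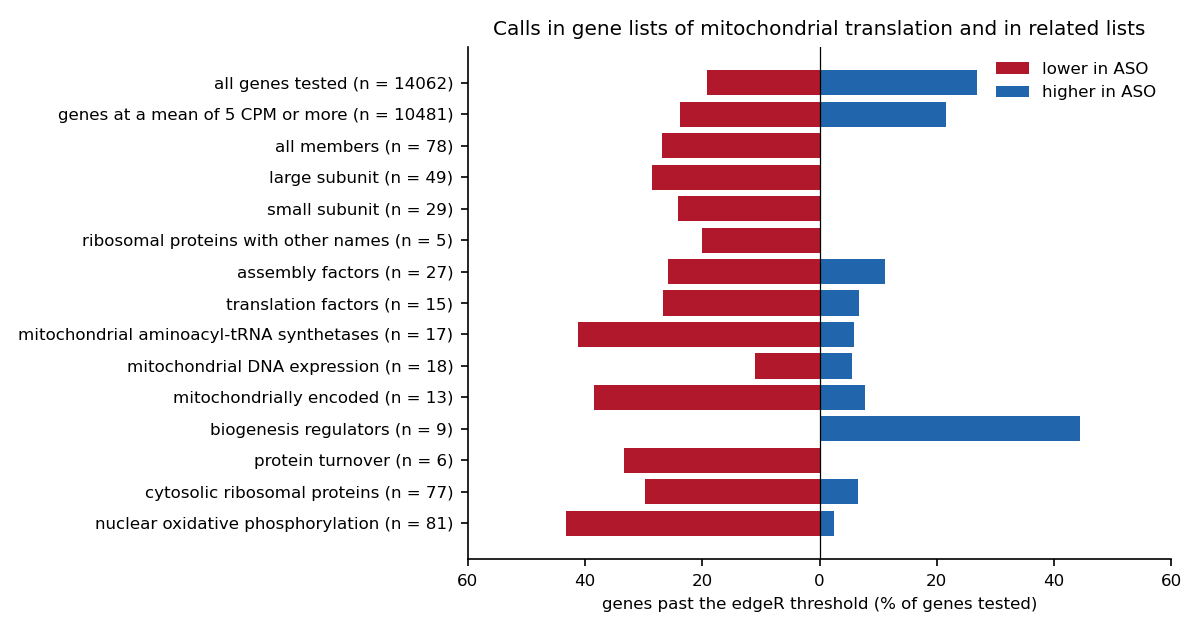
Share of genes past the edgeR threshold in each list (horizontal axis, percent of genes tested; red lower and blue higher in ASO), with the number tested in brackets; "all members" are the 78 mitochondrial ribosomal protein genes. The members show 26.9% lower and no blue bar, next to 23.7% and 21.5% among all genes at a mean of 5 CPM or more.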

How the data were processed

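Total RNA sequencing of 3 NC and 3 ASO libraries was analysed. The submitters' processing notes list STAR, StringTie, FastQC and DESeq2 with build hg38. The deposited values are estimated counts per gene, whole numbers without scaling. Versions, annotation, strand and multi-mapping rules were not given in the sources used here. They were tested in R 4.3.3 with edgeR 4.0.16 (robust quasi-likelihood test, TMM factors, filterByExpr at a minimum count of 10 and total of 15, Benjamini-Hochberg adjustment over 14062 genes, threshold 0.05), with the fit on all genes and the 78 read from it. Levels are TMM-scaled CPM computed from the counts, mean ± SD, n = 3. Standard errors are the fold change over the square root of F. Gene properties come from GENCODE v29 (GRCh38), using the transcript of median length among those of the best APPRIS rank. That choice replaced the longest such transcript after levels per length had been seen, and the longest is kept as an alternative. Motifs were searched in RefSeq promoter windows.

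The members and lists were chosen with earlier results of these data known. Named members are the 8 largest falls and the 8 largest rises past the test with separate groups, the 3 smallest p-values in each direction, and 18 genes fixed for their role; named context genes are a fixed list and up to 3 largest changes per list. Alternatives were other scalings and filters, DESeq2 1.42.0, limma-voom (limma 3.58.1), a replicate block, counts divided by 4, removal of mitochondrially encoded genes, leaving out each library, a GC and length trend (mgcv 1.9.3), and subunit by structure. The test was also run on simulated counts drawn independently for each gene and library. They lacked the GC-related differences between libraries described above, so that run cannot speak for the calls given here. Totals of 49.1e6 to 54.9e6 counts limit precision little; counts pile up at 4, so the number of reads behind an estimated count is not known and may be smaller than the count.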

Additional observations from a re-analysis of the deposited data

How the results depend on the processing

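Among the 78 genes, 19 to 25 fell and 0 rose under other scalings, filters, DESeq2, limma-voom, counts divided by 4 and without the mitochondrially encoded genes. Leaving out a library gave 13 (without NC1) to 28 (without ASO2) lower and 0 to 4 higher genes; in the large subunit 6 (without NC1) to 19 (without ASO2) lower, with 9 without ASO3, and 0 to 3 higher; in the small subunit 6 to 9 lower and 0 to 1 higher. The count of genes changed, all genes, was 6464 and ran from 4892 (without ASO3) to 7126 (without ASO2) with a library left out, and was 7418 with the replicate block. With the replicate block, 34 genes were lower and 2 higher (MRPS30 and MRPL53), 23 and 1 in the large and 11 and 1 in the small subunit, while 24.8% of all genes were lower and 27.9% higher. The equal numbers were not taken to pair the libraries, since nothing in the labels says that they share a culture or day. The deviations of same-numbered libraries correlated at 0.05, 0.19 and 0.02 over 14062 genes, and not every library correlated best with its own number. NC2 and ASO2 did correlate best with each other, and rho with GC content across the 78 genes was -0.79 in both. A batch shared by same-numbered libraries was not tested.

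The median log2 fold change stayed below 0 for all members and for each subunit in all alternatives run. In the fits with a trend removed, values were centred on the median of the genes fitted, -0.09, so 0 is not their reference. Leaving out a library gave -0.25 to -0.21 for all members, -0.26 to -0.21 for the large and -0.24 to -0.14 for the small subunit, and -0.073 to 0.023 for the difference between subunits, the only one of the 4 that changed sign. In the order all members, large, small and large minus small, the medians were -0.13, -0.13, -0.095 and -0.036 with the trend in GC content and length removed. They were -0.14, -0.15, -0.14 and -0.015 with the longest principal transcript in that trend, and -0.21, -0.17, -0.24 and 0.065 with genomic span in it, both added after the data were seen. With counts divided by 4 the first 3 were -0.21, -0.23 and -0.16. The small subunit median was -0.20 with upper-quartile scaling and -0.21 by structure, where the difference between subunits was -0.036. The causes of these shifts were not tested. Among the fits with another scaling, filter, tool, block or set of libraries, the median of all genes moved by over 0.1 in 1, to 0.12 without a filter. Depth limits mainly the least expressed members such as MRPL1, MRPL55 and MRPS36.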
